A study of Mus musculus with 16 samples.

Results

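The platelet-derived growth factor (PDGF) system was examined through 7 genes, chosen by name: the ligands Pdgfa, Pdgfb, Pdgfc and Pdgfd, the receptor kinases Pdgfra and Pdgfrb, and the receptor-like gene Pdgfrl. They are 7 of the 25719 genes in the count tables, and all 7 passed the filter on low counts. RNA was sequenced from tail tendon fascicles, the thin collagen strands pulled from the mouse tail, in 8 libraries from wild type mice and 8 from ScxCre;Vhlf/f mice, called the knockout here. In these mice Cre recombinase, driven by regulatory sequence of the tendon gene Scx, removes the floxed part of Vhl in cells that have expressed Scx. Vhl encodes the subunit of a ubiquitin ligase that marks HIF1α for destruction. The series concerns HIF1α in tendon overload and tendinopathy and its relation to vessel recruitment. Strain, age and sex are not given in the sources used here. The sampled cells are labelled as all those in the tissue. Cells of other lineages thus keep Vhl but contribute RNA, and in such bulk RNA fewer cells of a type and less RNA per cell cannot be told apart.

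PDGFs are dimeric growth factors for cells of mesenchymal origin such as fibroblasts, pericytes and smooth muscle cells. PDGF-A and PDGF-B are processed inside the cell, whereas PDGF-C and PDGF-D are secreted with a CUB domain that must be cut off before they can bind. PDGF-A and PDGF-C dimers act through PDGFRα, PDGF-D dimers mainly through PDGFRβ, and PDGF-B dimers through either receptor. Endothelial cells use PDGF-B to recruit pericytes that carry PDGFRβ, and PDGFRα marks many connective tissue fibroblasts, including progenitor cells of the tendon sheath.

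Total counts per library lay between 10792900 and 16379401 in the wild type and between 10488355 and 18753254 in the knockout. Levels are given in CPM, read counts scaled to library size, here after trimmed mean of M-values (TMM) normalisation. Vhl itself lay between 7.51 and 10.9 CPM in the knockout and between 14.1 and 25.8 CPM in the wild type, so each library followed its label. Some libraries stood apart. Type I collagen took 12.0% of the counts in wild type library 3, against 19.7% to 29.2% in the other wild type libraries. In knockout libraries it took 7.7% to 18.4%, a range that holds wild type library 3. The summed level of 10 skeletal muscle markers exceeded 1000 CPM in 5 libraries (wild type 5 and 7, knockout 6, 7 and 8), and Scx exceeded 400 CPM in 4 (wild type 8, knockout 5, 6 and 8). The labels do not say that each library came from its own mouse, so p-values measure the spread between libraries. Genes are called at a threshold of 0.05. With Benjamini-Hochberg adjustment over 14803 tested genes, edgeR's quasi-likelihood test called 5 of the 7 members (71.4%), against 48.3% of all tested genes. Of the members 2 were higher in the knockout, where 25.6% of all genes were, and 3 were lower, where 22.7% were. In 1 member (Pdgfd) the genotypes did not overlap, as in 19.4% of all tested genes. The median log2 fold change was -0.20 over the members and 0.02 over all tested genes.

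The 4 ligands did not move together. Pdgfb rose 2.73-fold and Pdgfc rose 1.18-fold, while Pdgfa and Pdgfd fell to 0.697 and 0.622 of the wild type level. Pdgfrl fell to 0.416 of its wild type level, and neither receptor kinase passed the threshold.

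**Figure D1:**
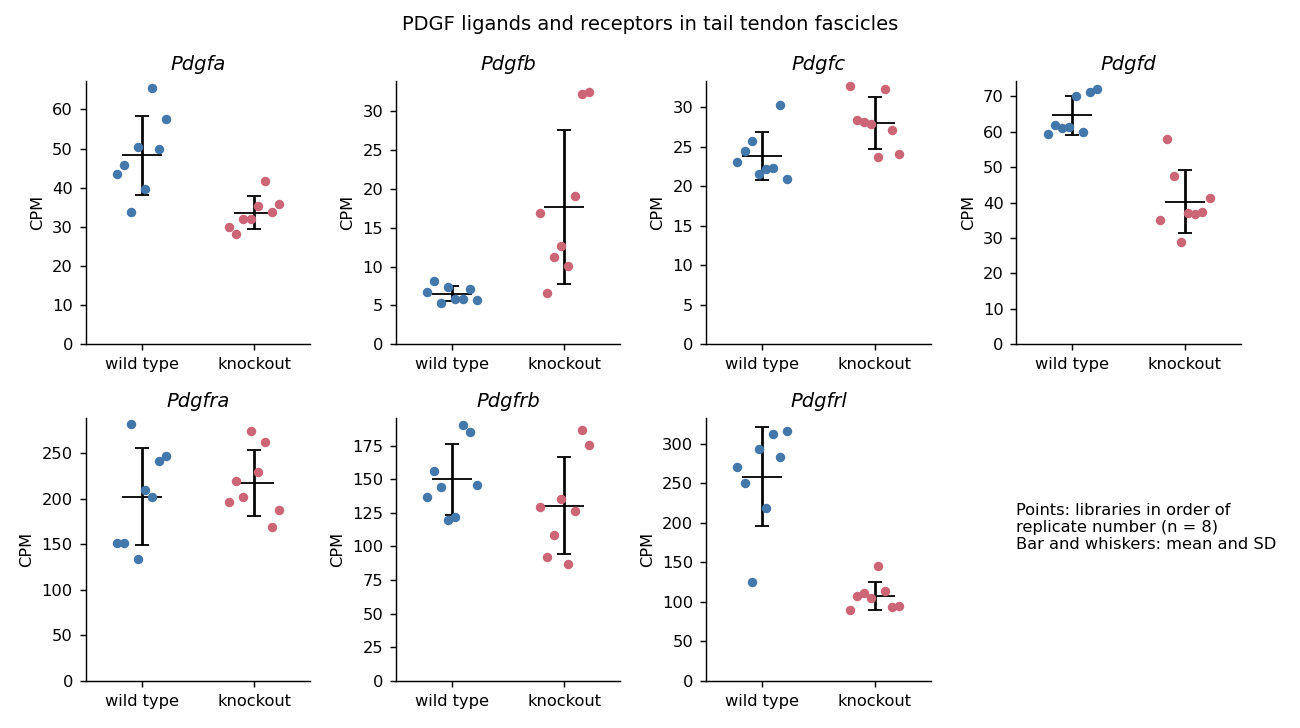
CPM of each member (vertical axes, from 0) in each of the 8 wild type and 8 knockout libraries, with the mean and SD. Pdgfd is the only member whose genotypes do not overlap, and the knockout libraries of Pdgfb spread from 6.55 to 32.5 CPM.

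Pdgfb (ENSMUSG00000000489, chromosome 15) encodes the ligand that endothelial cells present to pericytes. Its level ran from 5.31 through a median of 6.27 to 8.09 CPM in the wild type, and from 6.55 through 14.8 to 32.5 CPM in the knockout. Only knockout library 2 lay within the wild type range, and the next lowest knockout library had 10.04 CPM. The means were 6.47 ± 0.975 and 17.7 ± 9.88 CPM (SD, n = 8), a log2 fold change of 1.45 (SE 0.288, edgeR quasi-likelihood test, adjusted p = 5.09e-04), with a 95% interval of the fold from 1.79 to 4.17. The coefficient of variation was 55.9% over knockout libraries, the widest of any member, and 15.1% over wild type libraries. Counts behind these values ran from 59 to 665 per library. Without the 5 libraries of high muscle level the log2 fold change was 0.82 (SE 0.198, edgeR adjusted p = 0.00377). Those 5 include knockout libraries 6, 7 and 8, which had the highest Pdgfb (19.11, 32.25 and 32.51 CPM).

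The spread of Pdgfb among knockout libraries ran parallel to vessel markers. The score of 10 endothelial markers (their mean log2 CPM) was lowest in knockout library 2, at 1.12, and highest in knockout library 7, at 5.24. Wild type scores lay between 0.162 and 1.28. Over the 8 knockout libraries, Pdgfb in log2 CPM and the endothelial score had a Pearson correlation of 0.934 (exact permutation p = 0.000769, adjusted over 42 relations 0.0161) and a Spearman correlation of 0.929 (exact permutation p = 0.00223, adjusted 0.0312). The Pearson value was 0.909 without the 2 libraries farthest from the median score. Over the 8 wild type libraries it was -0.241 (exact permutation p = 0.607), and the difference between the genotypes was not tested. The mural cell score, from 11 markers of pericytes and smooth muscle, gave 0.944 in the knockout (exact permutation p = 0.000397, adjusted 0.0161), and the muscle score gave 0.902 (exact permutation p = 0.00228, adjusted 0.0319). Without the 2 libraries farthest from the median these were 0.893 and 0.758, and the Spearman correlation was 0.929 with either score (adjusted exact permutation p = 0.0312). The 3 scores rose and fell together among knockout libraries, with pairwise Pearson correlations of 0.862 to 0.990, so the relations cannot be told apart from each other. With the endothelial score as a covariate, a fit added after the data were seen, the log2 difference of Pdgfb between genotypes was -0.16 (SE 0.252, edgeR adjusted p = 0.690), and with the mural score it was -0.40 (SE 0.332, adjusted p = 0.442). These scores differ between genotypes too: only wild type library 5, at 1.28, exceeded the lowest knockout endothelial score, and the mural scores (0.663 to 2.22 in wild type libraries, 2.68 to 5.67 in knockout libraries) did not overlap. Genotype and score can hardly be told apart in such fits.

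**Figure D2:**
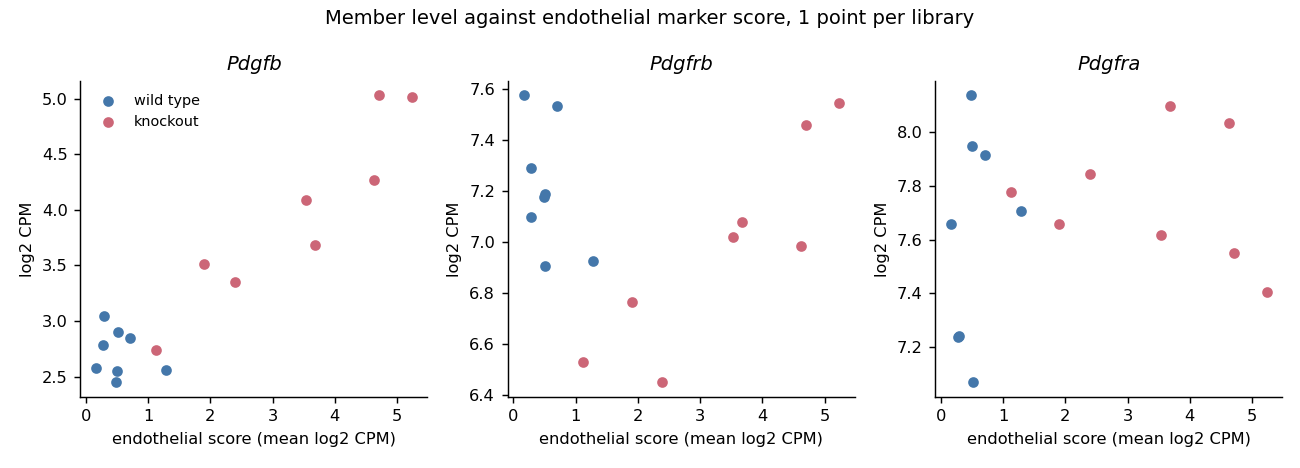
Log2 CPM of Pdgfb, Pdgfrb and Pdgfra (vertical axes) against the endothelial marker score (horizontal axis, mean log2 CPM of 10 markers), 1 point per library. Knockout points of Pdgfb and Pdgfrb climb with the score (Pearson 0.934 and 0.883), knockout points of Pdgfra do not (-0.20), and knockout library 2, with a score of 1.12, sits beside the wild type for Pdgfb.

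Of the endothelial markers 7 of 10 were tested, and 5 of them rose by edgeR, beside 25.6% of all genes, while Esam (0.96, adjusted p = 0.0953) and Tek (-0.08, adjusted p = 0.738) were not called. Their summed level lay between 30.6 and 50.2 CPM in the wild type and between 38.2 and 499 CPM in the knockout. Tek, at 22.7 ± 5.14 CPM (SD), made up most of the mean wild type sum. Tie1 and Cldn5 had at most 3 counts in every wild type library. Of the mural markers 8 of 11 were tested, with 6 higher and 1 lower (beside 25.6% and 22.7% of all genes), and their sum ran from 213 to 288 CPM in the wild type and from 324 to 1454 CPM in the knockout. Higd1b had at most 3 counts in every wild type library. The mural marker that fell was Cspg4, from 217 ± 27.9 to 179 ± 29.9 CPM (SD), and it made up most of the mean wild type mural sum. Acta2 was not called (0.66, edgeR adjusted p = 0.168). Cox4i2 rose from 2.75 ± 0.952 to 76.9 ± 16.9 CPM without overlap. Its SD in the knockout was smaller relative to its mean than that of any other mural marker that rose. The mural score was not recomputed without Cox4i2. Skeletal muscle markers summed to between 19.3 and 3760 CPM in the wild type and between 103 and 5665 CPM in the knockout. Their log2 fold changes by edgeR ran from -1.07 to 2.34, with adjusted p from 0.154 to 0.522. Platelets also store PDGF. Their markers summed to 61.3 to 96.7 CPM in the wild type and to 39.5 to 76.8 CPM in the knockout. Of 3 tested, Itga2b and Pf4 fell (beside 22.7% of all genes) and Gp1bb rose (beside 25.6%). Blood and immune markers differed as well. All 5 erythroid markers rose (beside 25.6% of all genes). Their sums of 15.1 to 50.6 CPM in wild type libraries and 77.2 to 559 CPM in knockout libraries did not overlap. Of 8 macrophage markers 4 rose (beside 25.6% of all genes), among them the leukocyte gene Ptprc by 0.87 (edgeR adjusted p = 1.13e-08) without overlap. The macrophage sums ran from 927 to 1337 CPM in wild type libraries and from 1085 to 1610 CPM in knockout libraries. The part of any of these cells in the level of Pdgfb was not tested.

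Pdgfa (ENSMUSG00000025856, chromosome 5), the other ligand with intracellular processing, was lower in the knockout. Its level ran from 33.7 through 47.9 to 65.4 CPM in the wild type and from 28.1 through 32.9 to 41.7 CPM in the knockout. The ranges overlapped through wild type libraries 3 and 5 and knockout libraries 5, 6 and 8. The means were 48.3 ± 10.01 and 33.6 ± 4.17 CPM (SD, n = 8), a log2 fold change of -0.52 (SE 0.113, edgeR adjusted p = 7.71e-04). Scaled to total counts, the difference was -0.20 (adjusted p = 0.0921), on a scale where the median of all genes stood at 0.32. When the mural score was added to the fit it was -0.65, with a larger SE of 0.239, and was not called (edgeR adjusted p = 0.0541). Exons of Pdgfa share 813 bases with 6330403L08Rik on the other strand, and the strand setting of the counting is not given in the sources used here, so its counts are uncertain to that extent.

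Pdgfc (ENSMUSG00000028019, chromosome 3) and Pdgfd (ENSMUSG00000032006, chromosome 9), the ligands with a CUB domain, went in opposite directions. Pdgfd ran from 59.3 through 61.5 to 72.1 CPM in the wild type and from 28.8 through 37.2 to 58.0 CPM in the knockout. Every knockout library was below every wild type library, as for 8.61% of all tested genes, and knockout library 2 was the closest. The means were 64.6 ± 5.51 and 40.2 ± 8.92 CPM (SD, n = 8), a log2 fold change of -0.69 (SE 0.107, edgeR adjusted p = 2.72e-05). With each library left out in turn it lay between -0.78 and -0.63. Scaled to total counts it was -0.39 (edgeR adjusted p = 0.00607). It was -0.38 (adjusted p = 0.0834) when the endothelial score was added to the fit and -0.43 (adjusted p = 0.136) for the mural score.

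Pdgfc ran from 21.0 through 22.7 to 30.2 CPM in the wild type and from 23.7 through 28.0 to 32.7 CPM in the knockout, with wide overlap. The means were 23.8 ± 3.03 and 28.0 ± 3.29 CPM (SD, n = 8), a log2 fold change of 0.24 (SE 0.0855, edgeR adjusted p = 0.0282). The call was lost when any of 6 libraries was left out (knockout 1 or 6, wild type 4, 5, 6 or 8), with values from 0.20 to 0.22 and adjusted p from 0.0517 to 0.0607, and in the fit that includes the muscle score (0.20, adjusted p = 0.0828), the endothelial score (0.20, adjusted p = 0.352) or the mural score (0.19, adjusted p = 0.496). Scaled to total counts, where the median of all genes was 0.32, Pdgfc was higher by 0.54 (edgeR adjusted p = 1.46e-04). Exons of Pdgfc share 147 bases with the antisense gene Gm16000.

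The upstream sequences of this pair of related ligands are shown because the pair diverged, and HIF, which loss of Vhl is known to stabilise, binds DNA at the core ACGTG or GCGTG. They are the 250 bases before the RefSeq start, from assembly GRCm38.p6, not the submitters' build, at chr3:81036166-81036415 on the + strand for Pdgfc and chr9:6168236-6168485 on the + strand for Pdgfd. They overlap no annotated exon. All letters are lower case because neither window holds a core on either strand.
Pdgfc: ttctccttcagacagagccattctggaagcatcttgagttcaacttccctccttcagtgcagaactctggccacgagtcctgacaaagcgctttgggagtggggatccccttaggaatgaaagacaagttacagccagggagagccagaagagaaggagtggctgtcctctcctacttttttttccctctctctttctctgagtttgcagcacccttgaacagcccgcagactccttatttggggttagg
Pdgfd: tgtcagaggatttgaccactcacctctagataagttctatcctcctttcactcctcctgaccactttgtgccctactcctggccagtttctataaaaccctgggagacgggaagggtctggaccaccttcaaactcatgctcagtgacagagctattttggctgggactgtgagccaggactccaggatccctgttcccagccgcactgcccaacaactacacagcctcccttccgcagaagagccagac
Of 32851 RefSeq windows of the same length, 38.6% hold at least 1 such core on either strand. Of 5 windows that matched 4 members (Pdgfa has 2, Pdgfra 1), a core was found in 1, upstream of 1 start of Pdgfa, in the GCGTG form. No window was searched for Pdgfb, Pdgfrb or Pdgfrl, so nothing is known here of cores near them. The matches are a description of these letters, and other windows were not searched.

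Per kilobase of exon, with all annotated exons of a gene merged, the order of the ligands was the same in both genotypes. Pdgfd came first, then Pdgfa, Pdgfc and Pdgfb. In the wild type Pdgfd stood at 20.5 ± 1.75, Pdgfa at 15.5 ± 3.21, Pdgfc at 4.68 ± 0.596 and Pdgfb at 1.56 ± 0.234 CPM per kb (SD, n = 8). In the knockout the values were 12.7 ± 2.83, 10.8 ± 1.34, 5.51 ± 0.646 and 4.24 ± 2.37 CPM per kb. Neighbouring ligands overlapped in both genotypes at Pdgfd and Pdgfa, and in the knockout at Pdgfc and Pdgfb as well. Pdgfb made up 3.71% ± 0.622 of the ligand transcripts per kb in wild type libraries and 12.5% ± 6.13 in knockout libraries, where it reached 21.7%. Pdgfd made up 48.7% ± 3.97 and 38.3% ± 7.33, Pdgfa 36.4% ± 5.08 and 32.5% ± 4.16, and Pdgfc 11.2% ± 1.69 and 16.7% ± 2.53.

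**Figure D3:**
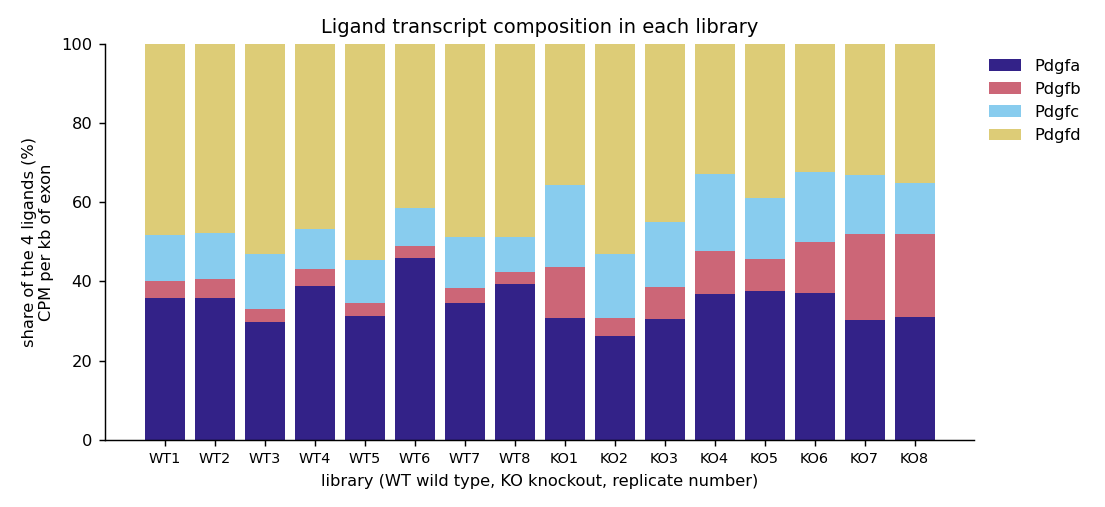
Share of each ligand in the sum of the 4 ligands (vertical axis, percent of CPM per kb of exon) in each library (horizontal axis, wild type then knockout). Pdgfb takes from 2.93% to 4.74% in the wild type and from 4.55% to 21.7% in the knockout.

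A ratio of 2 genes within a library does not depend on how that library is scaled. Of 7 ratios tested between genotypes, 5 differed (exact permutation over 12870 splits, two-sided, n = 8, adjusted over the 7). The log2 ratio of Pdgfb to Pdgfa rose from -2.86 ± 0.340 to -1.11 ± 0.729 without overlap (difference 1.75, exact permutation p = 0.000155, the smallest these splits can give, adjusted 0.000544). Pdgfc to Pdgfa rose by 0.74 (adjusted exact permutation p = 0.00145). Pdgfd to Pdgfa differed by -0.20 (exact permutation p = 0.272, adjusted 0.272), so a difference in size between the falls of those 2 ligands was not shown. Ligand fell against receptor for Pdgfa and Pdgfra (-0.64, adjusted exact permutation p = 0.0150) and rose for Pdgfb and Pdgfrb (1.48, adjusted exact permutation p = 0.000544, without overlap).

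Neither receptor kinase passed the threshold on the TMM scale. Pdgfra (ENSMUSG00000029231, chromosome 5), the receptor for PDGF-A and PDGF-C dimers, ran from 134 through 205 to 281 CPM in the wild type and from 169 through 210 to 274 CPM in the knockout. The genotypes overlapped over most of their range. The means were 202 ± 53.0 and 217 ± 36.3 CPM (SD, n = 8), a log2 fold change of 0.11 with a 95% interval from -0.20 to 0.41 (edgeR adjusted p = 0.576). Scaled to total counts, the difference was 0.39 (edgeR adjusted p = 0.059), on a scale where the median of all genes was 0.32. Markers of interstitial fibroblasts, which often carry PDGFRα, summed to 969 to 1721 CPM in the wild type and to 1101 to 1627 CPM in the knockout. Of these 7 markers 2 were higher and 1 was lower, beside 25.6% and 22.7% of all genes. Exons of Pdgfra overlap those of Gm42802 (456 bases) and Gm42803 (166 bases) on the other strand, so its counts are uncertain to that extent.

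Pdgfrb (ENSMUSG00000024620, chromosome 18), the receptor of pericytes and many fibroblasts, ran from 120 through 145 to 191 CPM in the wild type and from 87.3 through 128 to 187 CPM in the knockout. The 2 highest knockout libraries were 7 and 8, with 187 and 176 CPM, both of high muscle and endothelial score. Knockout library 6, also of high muscle and endothelial score, had 126.5 CPM, below the knockout median. The 2 lowest were 5 and 2, with 87.3 and 92.2 CPM. The means were 150 ± 26.4 and 130 ± 35.9 CPM (SD, n = 8), a log2 fold change of -0.20 with a 95% interval from -0.52 to 0.11 (edgeR adjusted p = 0.279). Scaled to total counts the sign turned, to 0.11 (adjusted p = 0.556).

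Among knockout libraries Pdgfrb followed the vessel scores, as Pdgfb did. Its Pearson correlation was 0.883 with the endothelial score (exact permutation p = 0.00506, adjusted over 42 relations 0.0398, and 0.902 without the 2 farthest libraries) and 0.903 with the mural score (exact permutation p = 0.00352, adjusted 0.0370, and 0.822 without the 2 farthest). The Spearman correlations were both 0.857, with adjusted exact permutation p = 0.0900. With the muscle score the Pearson correlation was 0.873 (exact permutation p = 0.00568, adjusted 0.0398, and 0.684 without the 2 farthest). These 6 were the relations, of 42, with an adjusted Pearson p under 0.05. In the wild type the Pearson correlation with the endothelial score was -0.451 (exact permutation p = 0.268). With the endothelial score as a covariate Pdgfrb was lower in the knockout by a log2 fold change of -0.85 (SE 0.209, edgeR adjusted p = 0.00419), with the mural score by -0.91 (adjusted p = 0.0175), and without the 5 libraries of high muscle level by -0.43 (SE 0.134, adjusted p = 0.0182). These 3 fits were added after the data were seen, and the first pair carries the limit on genotype and score given for Pdgfb. The third left out knockout libraries 7 and 8, the 2 with the highest Pdgfrb. Knockout libraries 6, 7 and 8, all left out, also had the highest endothelial scores (4.62, 5.24 and 4.71). A lower Pdgfrb in that fit therefore cannot be told apart from the choice of libraries. When the muscle score was added to the fit instead, Pdgfrb stood at -0.31 (SE 0.167, edgeR adjusted p = 0.139) and was not called. The log2 ratio of Pdgfrb to Pdgfra differed by -0.37 between genotypes (exact permutation p = 0.141, adjusted 0.164), and by -0.50 without knockout library 7 (adjusted exact permutation p = 0.0455).

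Pdgfrl (ENSMUSG00000031595, chromosome 8) encodes a secreted protein that resembles the extracellular part of PDGFRβ and has no kinase domain. It was the most abundant member per kilobase in both genotypes, at 82.8 ± 20.1 CPM per kb in wild type libraries and 34.4 ± 5.67 in knockout libraries (SD, n = 8). Pdgfrb followed at 27.4 ± 4.81 and 23.8 ± 6.56, and Pdgfra at 20.1 ± 5.28 and 21.7 ± 3.62 CPM per kb, and these receptor kinases overlapped in both genotypes. Pdgfrl and Pdgfrb overlapped only in the knockout, where Pdgfrl began at 28.6 and Pdgfrb reached 34.1 CPM per kb. In CPM, Pdgfrl ran from 125 through 277 to 316 in the wild type and from 89.4 through 106 to 145 in the knockout. The overlap came from wild type library 3, the wild type library with the lowest share of type I collagen. The next lowest wild type library had 219 CPM, above every knockout library. The means were 259 ± 62.9 and 108 ± 17.7 CPM (SD, n = 8), a log2 fold change of -1.27 (SE 0.153, edgeR adjusted p = 1.43e-06). It was called under all 31 alternatives, with values from -1.38, without wild type library 3, to -0.94, with total counts. The log2 ratio of Pdgfrl to Pdgfra fell from 0.35 ± 0.705 to -1.01 ± 0.228 (exact permutation p = 0.00109, adjusted 0.00190). A change larger in size than that of Pdgfrl was measured for 10.2% of all tested genes, and than that of Pdgfb for 8.35%. Among 8 tenocyte markers, 6 fell by edgeR, beside 22.7% of all genes, and Scx and Thbs4 were not called, and their summed level ran from 129837 to 379895 CPM in the wild type and from 76425 to 179855 CPM in the knockout.

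**Figure D4:**
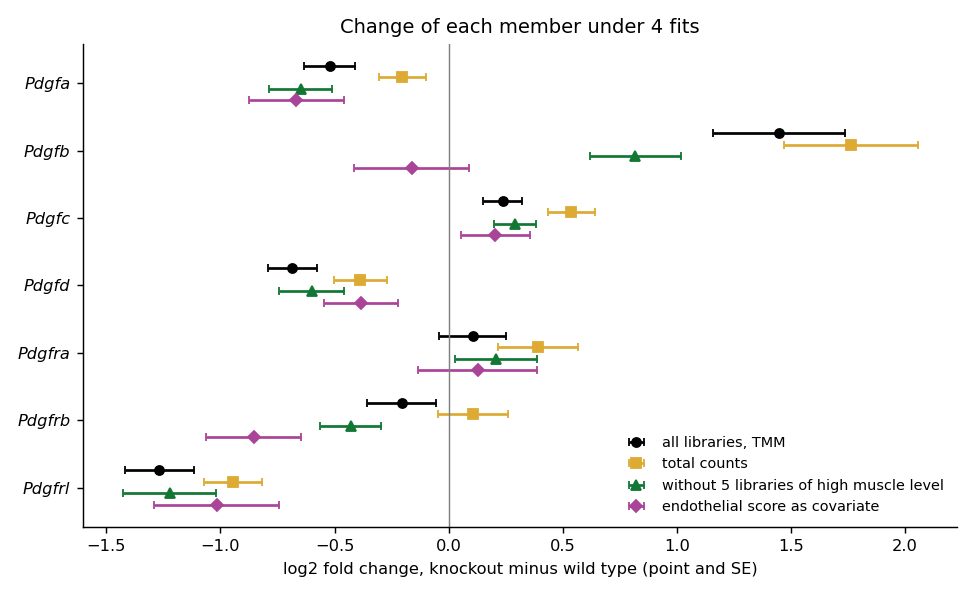
Log2 fold change of each member, knockout minus wild type (horizontal axis, point and SE), under 4 fits. Pdgfrl stays between -1.27 and -0.94 in these fits, Pdgfb moves from 1.45 to -0.16 and Pdgfrb from -0.20 to -0.85 with the endothelial score as a covariate.

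With the genotype means subtracted, the pattern over the 16 libraries most like that of Pdgfb, among 13417 genes with a mean log2 CPM of at least 1, was that of Adcy4 (Pearson r = 0.954), then Arap3 (0.948) and Cd93 (0.940). For Pdgfrb the nearest were Spata13 (0.883), Tead1 (0.883) and Itga3 (0.882). For Pdgfra they were Slc43a3 (0.956), Irak3 (0.923) and C1qtnf7 (0.914). Pdgfrl was nearest to Ctsh (0.951), Ergic3 (0.941) and Gpx7 (0.936). Pdgfa was nearest to Arl4c (0.874), Zfp771 (0.874) and Wdr55 (0.865), Pdgfc to Gm42957 (0.831), Rictor (0.809) and Ttf2 (0.805), and Pdgfd to Srpx (0.862), Dpp10 (0.821) and Fam136a (0.812). These values describe a search over many genes and carry no test.

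Proteins that process, bind or co-receive PDGFs moved both ways. Of 12 tested, 5 rose and 4 fell (75.0%, beside 48.3% of all genes), with a median of 0.11. Plat, which encodes the tissue plasminogen activator that cleaves PDGF-C, averaged 29.5 ± 5.81 CPM in wild type libraries and 51.1 ± 8.11 CPM in knockout libraries, a rise of 0.79 on the log2 scale (SE 0.118, edgeR adjusted p = 1.51e-05). Plau, which encodes the urokinase that cleaves PDGF-D, averaged 28.4 ± 3.12 CPM in wild type libraries and 16.2 ± 3.57 CPM in knockout libraries, with a log2 fold change of -0.81 by edgeR (SE 0.121 and adjusted p = 1.46e-05). Neither overlapped between genotypes, as for 19.4% of all tested genes. Plat was higher, as was Pdgfc, and Plau was lower, as was Pdgfd. The call of Pdgfc was lost in several fits, as given above, and a link between activator and ligand was not tested. St14, also on this list, did not pass the expression filter. The proprotein convertase Pcsk6 rose by 0.54 (adjusted p = 4.49e-05), and of 3 other convertases, named after their values were seen, Pcsk5 and Pcsk7 rose by 0.35 and 0.20 and Furin differed by 0.03 (adjusted p = 0.797).

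Among binding proteins the changes were wide. A2m, the protease inhibitor that also carries PDGF-B, had at most 2 counts in every wild type library and 153 ± 26.2 CPM in the knockout, at least 575-fold higher against a floor of 3 counts per library. Sparc, a matrix protein that binds PDGF-B, averaged 35614 ± 7054 CPM in wild type and 10500 ± 2048 CPM in knockout libraries without overlap, a log2 fold change of -1.76 (SE 0.153, edgeR adjusted p = 1.21e-08). Lrp1, a co-receptor of PDGFRβ, fell by 0.41 on the log2 scale (adjusted p = 0.00960). Of the neuropilins, named after their values were seen, Nrp2 fell by 0.33 and Nrp1 differed by -0.04 (adjusted p = 0.703).

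Of the 6 tested relatives in the class III receptor kinase family and their ligands, 2 rose and 2 fell (66.7%, beside 48.3% of all genes), with a median of 0.03. Kitl, the ligand of KIT, rose by 1.08 (edgeR adjusted p = 3.07e-05). The receptor gene Kit, named after its values were seen, rose by 3.44 (SE 0.749, edgeR adjusted p = 0.00128), and its genotypes overlapped. Kit was scarce, at 0.719 ± 0.777 CPM in wild type and 7.59 ± 7.41 CPM in knockout libraries (SD). Its mean log2 CPM of 0.835 lies below the cut of 1 used for naming genes. With the mural score as a covariate 0 class III relatives were called higher, and calls over all genes fell too, to 1934 higher from 3792. Il34 averaged 22.9 ± 4.28 CPM in wild type and 4.73 ± 2.36 CPM in knockout libraries (log2 fold change -2.26, edgeR adjusted p = 1.25e-06), and Csf1 fell by 0.23 (adjusted p = 0.0248). Both encode ligands of the receptor encoded by Csf1r, which, named after its values were seen, differed by -0.12 (adjusted p = 0.350).

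Genes of the signalling chain below the receptors were called about as often as any gene. Of 36 tested, 9 rose and 10 fell (52.8%, beside 48.3% of all genes), with a median of 0.00. Pik3r1, the main regulatory subunit of PI3 kinase, averaged 753 ± 114 CPM in wild type and 339 ± 36.4 CPM in knockout libraries, a log2 fold change of -1.15 (SE 0.0963, edgeR adjusted p = 7.55e-09). Akt2 fell by 0.71 (adjusted p = 7.92e-07) and Stat5b by 0.37 (adjusted p = 9.23e-05). Map2k1, which encodes the kinase MEK1, rose by 0.68 (adjusted p = 7.33e-07), Pik3cb by 0.61 (adjusted p = 4.20e-04) and Stat3 by 0.55 (adjusted p = 3.94e-07). Scaled to total counts, 25 rose and 2 fell, on a scale where 8270 of all genes rose, 1415 fell and the median of all genes was 0.32. Of 15 inhibitors of the pathway, 6 rose and 3 fell (60.0%, beside 48.3% of all genes), with a median of 0.13. The phosphatase gene Ptpn2 rose by 0.88 (adjusted p = 1.54e-07), Ptpn1 by 0.31 (adjusted p = 0.00572) and Spred2 by 0.29 (adjusted p = 2.89e-04). Spry4, a feedback inhibitor of receptor kinases, fell by 0.71 (adjusted p = 3.91e-05) and Cbl by 0.18 (adjusted p = 0.0432).

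Immediate early genes, which growth factors including PDGF induce in fibroblasts, moved one way where they were called. Of 17 tested, 9 rose (52.9%, beside 25.6% of all genes higher) and none fell, by edgeR, by DESeq2 or at an unadjusted p under 0.05, with a median of 0.43. Ier3 averaged 36.4 ± 5.75 CPM in wild type and 167 ± 49.4 CPM in knockout libraries, a rise of 2.19 on the log2 scale (SE 0.165, edgeR adjusted p = 4.50e-09). Egr3 rose by 1.52 (adjusted p = 0.00162) and Atf3 by 1.39 (adjusted p = 6.40e-06). Of 2 best known members, named after their values were seen, Fos differed by 0.56 (adjusted p = 0.416) and Egr1 by 0.16 (adjusted p = 0.747). With the endothelial or the mural score as a covariate 2 of these genes rose. In those fits 2276 and 1934 of all 14803 genes were called higher, against 3792 without a covariate. Some leukocyte and blood markers were also higher in the knockout without a covariate, beside 25.6% of all genes. These were 4 of 8 macrophage markers, among them Ptprc at 0.87 and Lyz2 and Adgre1 both at 0.41, and all 5 erythroid markers. C1qa, C1qb, Cd68 and Mrc1 were not called, and the platelet markers Itga2b and Pf4 fell. Most tested vessel markers rose, as given above. The part of any of these cells in the level of the immediate early genes was not tested.

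**Figure D5:**
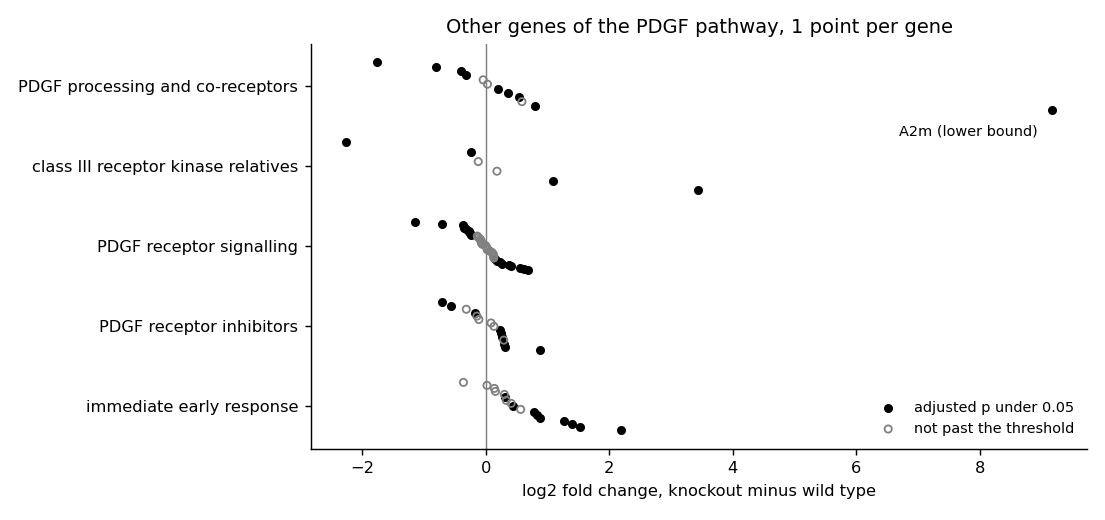
Log2 fold change, knockout minus wild type (horizontal axis), of each tested gene in 5 lists of the PDGF pathway (rows), filled where the adjusted p was under 0.05. A2m is drawn at its lower bound, and no filled point of the immediate early list lies below 0.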

How the data were processed

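Whole-number counts per gene were deposited by the authors for 16 libraries, under a column header of matched counts per the file headers. The submitters' processing notes name kallisto, featureCounts and the build GRCm39. Which of them made the counts, the annotation and the strand setting are not given in the sources used here. Identifiers were paired with symbols through a supplied name table (25614 of 25719). Samples were grouped by genotype in their titles.

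The counts were tested with edgeR 4.0.16 (quasi-likelihood F test, robust dispersion, TMM, default expression filter, genotype as the only term, two-sided) in R 4.3.3, with Benjamini-Hochberg adjustment over 14803 genes and a threshold of 0.05. SE was derived from the F statistic. Tested genes held at least 99.7% of counts. Log2 CPM used a prior count of 2. Exon lengths and overlaps came from GENCODE M21 (GRCm38), upstream windows from RefSeq. The length of a gene was that of all its annotated exons merged, 10024 bases for Pdgfra. Orders and shares per kb depend on these lengths, and no other length was tried. No pair of libraries was a repeat: the lowest chi-square per degree of freedom over 14096 genes was 6.54. On simulated counts with 200 genes changed by 1 log2 unit among 15047 tested, 198 (99.0%) were called and 4.81% of calls were unchanged genes. The simulation gave all genes the same dispersion and balanced the changes up and down. In the real data 48.3% of genes were called and dispersion varied by gene, so these rates need not hold there.

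Members and lists were chosen with earlier results of these data known. All 7 members are named. From each list the rule names up to 3 genes with the largest rise and 3 with the largest fall (adjusted p under 0.05, mean log2 CPM of at least 1), and for each member the 3 genes most like it. A gene that this rule names is not reported here. Other genes are said to have been named after their values were seen. Alternatives covered scaling, filters, DESeq2 1.42.0, limma-voom (limma 3.58.1), dispersion, the replicate block, covariates and each library left out. Fits without libraries of high muscle or Scx level and with the vessel scores as covariates were added after the data were seen. Replicate numbers gave no clear sign of pairing the libraries, which does not exclude it: deviations of same-numbered libraries correlated between -0.418 and 0.428.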

Additional observations from a re-analysis of the deposited data

Results flagged for a closer look

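In 14 checks of a member in a genotype of 8 libraries, where chance sets apart about 1 in 20, a single library stood apart. Pdgfrl was lowest in wild type library 3, at a log2 CPM of 6.97 (125 CPM), and the next lowest wild type library had 219 CPM. The same library had the lowest share of type I collagen among wild type libraries (12.0%). Without it the log2 fold change of Pdgfrl was -1.38.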

How the results depend on the processing

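Of 739 recomputed values over 27 results, 688 kept their direction and call (counts within 1.5 times), 3 reversed and the others changed call or size. The cause of these changes was not tested. With total counts and no scaling factor, which moved the median of all genes to 0.32, Pdgfa was -0.20 and Pdgfrb 0.11. Then 8270 genes were higher and 1415 lower (85.4% of calls higher, against 53.0% with TMM). Processing and co-receptor genes were 8 higher and 2 lower, class III relatives 1 lower, and signalling genes 25 higher and 2 lower. With the skeletal muscle score as a covariate Pdgfc was 0.20. Without the libraries of high muscle level Pdgfrb was -0.43 and 1 class III relative was lower. Without those of high Scx level 3 processing genes were higher. With the endothelial score as a covariate Pdgfb was -0.16, Pdgfc 0.20, Pdgfd -0.38 and Pdgfrb -0.85, and 4179 genes were called (2276 higher, 1903 lower), with 3 processing, 1 class III, 5 signalling, 2 inhibitor and 2 immediate early genes higher and 1 class III relative lower. With the mural score Pdgfa was -0.65 and no longer called (edgeR adjusted p = 0.0541), Pdgfb -0.40, Pdgfc 0.19, Pdgfd -0.43 and Pdgfrb -0.91, and 3593 genes were called (1934 higher, 1659 lower), with 2 processing, 0 class III, 3 signalling, 2 inhibitor and 2 immediate early genes higher and 1 class III relative and 5 signalling genes lower. With each library left out in turn, Pdgfc lay between 0.20 and 0.29, 1 to 2 class III relatives were lower, and the log2 ratio of Pdgfrb to Pdgfra differed by -0.50 to -0.28. With the replicate number as a block, 7010 genes were called, Pdgfb was 1.28 and Pdgfrl -1.24, and no member changed its call. Of the 8 same-numbered pairs 3 correlated over 0.1, and 1 knockout library correlated best with the wild type library of its own number. This gave no clear sign of pairing by number and cannot exclude it.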
